A study of Homo sapiens with 1 sample.

Results

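The zinc finger genes of human chromosome 19 were described in the open chromatin of 786-O cells. Members were the GENCODE protein-coding genes on this chromosome whose symbol is ZNF followed by a digit, and there were 249 of them among 1476 protein-coding genes of the chromosome and 20033 of the genome. For each gene the values read were peaks at its promoters, peaks in its gene body and the sequence around its start.

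The assay was ATAC-seq, where Tn5 transposase cuts and tags DNA that is open rather than packed in nucleosomes. The cells were 786-O, an established line from a human clear cell renal cell carcinoma, and the labels give their genotype as an empty vector control. Only the peak list of 1 such library was used, and the DPF3a-overexpressing library of the study is not analysed here. Without a replicate no test was possible. Shares carry exact binomial (Clopper-Pearson) intervals at 95% and folds carry exact Poisson intervals at 95%, and neither covers variation between libraries. The Poisson intervals cover counting error only. The binomial intervals treat genes as independent, although many members are local duplicates and some share a peak. Whether intervals overlap is therefore given as a description and not as a test. The promoters of the renal epithelial marker PAX8 and of VIM, a gene active in mesenchymal-like tumour cells, had peaks with folds of 31.9 and 47.9 and that of the epithelial keratin KRT18 one of 8.24, whereas the leukocyte genes PTPRC and CD3E and the endothelial genes PECAM1 and CDH5 had none.

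Most zinc finger proteins of this family bind DNA through an array of C2H2 fingers, each a short loop held by a zinc ion. Many carry a KRAB box, which recruits TRIM28 and with it the enzymes that write repressive H3K9me3, and a large number of them bind and silence transposable elements. The genes arose through repeated local duplication and stand in dense clusters, in which H3K9me3 is known to lie over the 3' exons that code for the fingers while the promoters can remain active.

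A gene was counted as having a promoter peak when a summit lay no more than 1 kb before or 100 bp after the start (TSS) of any of its transcripts. Of the 249 ZNF genes, 209 had a promoter peak, a share of 83.9% (78.8 to 88.3%). The share was 55.9% (53.1 to 58.7%) among the 1227 other protein-coding genes of chromosome 19 and 61.4% (60.7 to 62.1%) among all 20033 protein-coding genes. Among the 110 other protein-coding genes that lie inside the spans of the ZNF clusters, 53 had a peak (48.2%, 38.6 to 57.9%). This pooled share was uneven across the clusters defined below, from 0 of 14 such genes in cluster B to 5 of 6 in cluster F. ZNF genes on other chromosomes were close to the members, with 210 of 266 (78.9%, 73.6 to 83.7%), and these intervals overlapped. When only the canonical transcript was used, 192 members had a peak (77.1%), against 46.0% of the other genes of the chromosome and 52.2% of all protein-coding genes.

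The promoter peaks of the members were moderate in height. The fold is the number of fragments stacked over the summit plus 1, divided by the genome-wide background of 0.941 plus 1. Taking the highest promoter peak of each gene, the median fold of the 209 members was 17.0 (interquartile range, 12.9 to 24.2). It was 20.4 (12.4 to 31.3) in the other genes of the chromosome with a promoter peak, 26.3 in ZNF genes elsewhere and 25.8 in all genes. Folds over 40 were found in 6 members (2.87%) and in 89 of the other genes (13.0%). At the low end, 7 members rested on a pileup under 15. The median peak was 900 bp wide in members and 897.5 bp in the other genes, and among members higher peaks tended to be wider (Spearman's rho 0.49 across 209 genes, which include the 12 pairs that share a peak).

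Member summits sat close to the annotated start. Measured from the canonical TSS, the median summit lay at -46 bp (interquartile range, -131 to 10), and 81.8% lay within 200 bp. In the other genes of the chromosome the median was -121 bp and 57.0% lay within 200 bp. Among the 686 other genes of the chromosome with a promoter peak, 17.6% had peaks only at starts other than the canonical one. Among members the share was smaller, at 17 of 209. ZNF331, a gene disrupted in thyroid adenomas, was of this kind, since its highest peak (fold 21.6, 15.7 to 29.2) lay 17206 bp upstream of the canonical start and 9 bp from another annotated start.

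**Figure D1:**
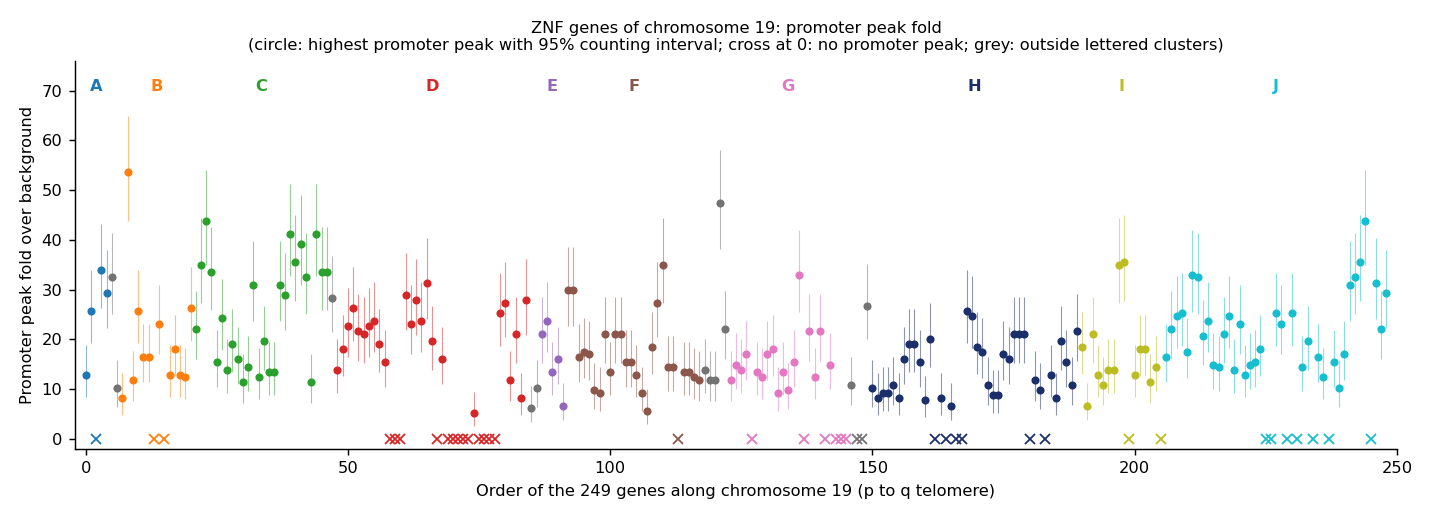
Fold of the highest promoter peak (y axis, linear, fold over background) for the 249 ZNF genes in their order along chromosome 19 (x axis), coloured by cluster A to J, with grey for genes outside them. Circles carry 95% counting intervals, crosses at 0 mark the 40 genes without a promoter peak, and the densest run of crosses lies in cluster D.

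The 10 highest promoter folds belonged to members from several clusters, with cluster C, defined below, the most frequent. ZNF823, ZNF563, ZNF564, ZNF799 and ZNF442 lay in it. ZNF558, a KRAB protein of 9 fingers, had the highest (53.6, 43.8 to 64.9; peak at chr19:8831897-8833228). ZNF574, which lies outside the clusters, followed with 47.4 (38.3 to 58.1). ZNF823 and ZNF584 had 43.8 each, and ZNF563 and ZNF564 had 41.2 each. ZNF799 had 39.2, and ZNF442, ZNF444 and ZNF837 had 35.6 each. The interval of a fold of 35.6 was 27.7 to 44.9 and overlapped that of ZNF558, so the order among these 10 genes is not resolved at this depth.

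A pair of promoters with the same number of CpG dinucleotides differed in whether they had a promoter peak. Each 300-base window runs from 250 bases before to 50 bases after the canonical TSS in hg38, is written 5′ to 3′ on the gene's own strand and has every CpG in capitals. ZNF558 (minus strand, chr19:8832255-8832554) and ZNF135 (plus strand, chr19:58059032-58059331) both held 34 CpG, but ZNF135 had no promoter peak and its nearest summit was 38.6 kb from the nearest of its starts. The ZNF558 peak covered the window shown, but its summit lay outside it, at -517 bp from the canonical TSS. That summit also lies at the promoter of a long noncoding RNA. ZNF91 (minus strand, chr19:23395422-23395721) held only 11 CpG yet its promoter peak reached a fold of 27.3 (20.5 to 35.7).
ZNF558: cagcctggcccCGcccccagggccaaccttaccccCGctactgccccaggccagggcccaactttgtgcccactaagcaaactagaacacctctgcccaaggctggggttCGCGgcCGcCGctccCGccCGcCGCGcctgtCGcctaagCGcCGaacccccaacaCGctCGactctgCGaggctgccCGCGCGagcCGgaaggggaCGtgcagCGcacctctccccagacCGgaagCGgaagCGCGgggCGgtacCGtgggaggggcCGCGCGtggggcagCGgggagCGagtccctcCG
ZNF135: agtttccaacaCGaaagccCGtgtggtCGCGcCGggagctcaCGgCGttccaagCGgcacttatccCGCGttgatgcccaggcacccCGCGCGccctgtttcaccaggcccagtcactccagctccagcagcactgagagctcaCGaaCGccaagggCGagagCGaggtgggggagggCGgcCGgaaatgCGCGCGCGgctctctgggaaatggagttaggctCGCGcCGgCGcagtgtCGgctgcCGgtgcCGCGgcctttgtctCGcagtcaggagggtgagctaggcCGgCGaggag
ZNF91: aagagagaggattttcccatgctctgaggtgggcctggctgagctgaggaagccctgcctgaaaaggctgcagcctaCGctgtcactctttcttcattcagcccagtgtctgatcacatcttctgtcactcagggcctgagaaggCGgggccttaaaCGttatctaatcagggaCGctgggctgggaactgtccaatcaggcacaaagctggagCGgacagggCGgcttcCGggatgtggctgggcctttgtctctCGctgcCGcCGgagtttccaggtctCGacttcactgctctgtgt

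The share of members with a promoter peak differed most from that of the other genes where CpG content was low. CpG observed/expected is the number of CpG over the number that the C and G content of the window would give by chance. Among members with a value of 0.6 or less, 41 of 54 had a promoter peak (75.9%, 62.4 to 86.5%), whereas 108 of 483 such genes did among the others (22.4%, 18.7 to 26.3%). Above 0.6 the shares were 86.2% (80.5 to 90.7%) and 77.7% (74.5 to 80.6%). In the bin from 0.6 to 0.8 alone they were 84.6% (75.5 to 91.3%) and 65.55% (59.1 to 71.6%). Clusters C and D, defined below, had the lowest median CpG values, at 0.604 and 0.467, so many genes of the low group lie in them. The low group is therefore not a set of independent genes. With the canonical transcript alone the shares in the low group were 64.8% and 11%. Above 0.6 they were then 80.5% (74.25 to 85.83%) and 68.8% (65.35 to 72.13%), and these intervals did not overlap. The fold hardly followed the CpG value across the 209 members (Spearman's rho -0.07, across genes that are not independent, many being duplicates of each other), and it was 0.16 across 686 other genes.

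**Figure D2:**
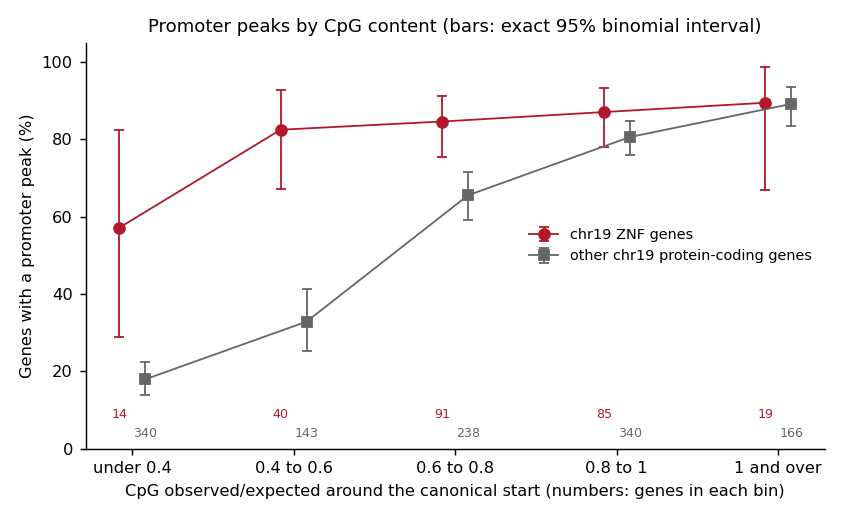
Share of genes with a promoter peak (y axis, %) by CpG observed/expected around the canonical start (x axis, 5 bins), for ZNF genes (circles) and other protein-coding genes of chromosome 19 (squares), with exact 95% intervals. The groups are farthest apart in the bin from 0.4 to 0.6, at 82.5% and 32.9%, and close together in the highest bin.

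The genes were then divided by position. A new cluster began wherever neighbouring members lay more than 500 kb apart, and groups of at least 5 members were lettered from the p to the q telomere. This gave 10 clusters with 235 members, and the other 14 members stood at 10 places. The clusters spanned 14.4 Mb.

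Clusters C and E had a promoter peak at every member. Cluster C (11.48 to 12.64 Mb) had it at 26 of 26 genes (86.8 to 100%) and cluster E (34.68 to 34.96 Mb) at 5 of 5 (47.8 to 100%). Cluster F (36.18 to 37.82 Mb) followed with 25 of 26 (96.2%, 80.4 to 99.9%), its exception being ZNF793. The intervals of these 3 clusters overlapped.

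In the middle of the order were the clusters near the q telomere and 2 on the p arm. Cluster I (55.48 to 56.67 Mb), in which only 6 of 16 members had a KRAB box, had 14 of 16 genes with a peak (87.5%). Cluster B (8.51 to 9.79 Mb) had 12 of 14 (85.7%), cluster H (51.57 to 53.58 Mb) 34 of 40 (85.0%) and cluster J (57.19 to 58.48 Mb) 36 of 43 (83.7%). The small cluster A (2.82 to 2.94 Mb) had 4 of 5, and 12 of the 14 scattered genes had one as well.

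Clusters G and D were lowest. Cluster G (43.53 to 44.50 Mb) had 17 of 23 members with a peak (73.9%, 51.6 to 89.8%). Cluster D (19.67 to 24.13 Mb), next to the centromere, had 24 of 37 (64.9%, 47.5 to 79.8%), an interval that ended below the start of the interval of cluster C. This separation rested on 6 genes of cluster D in copied sequence, described below, without which 24 of 31 had a peak (77.4%, 58.9 to 90.4%), the interval overlapped that of cluster C and cluster G was lowest.

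**Figure D3:**
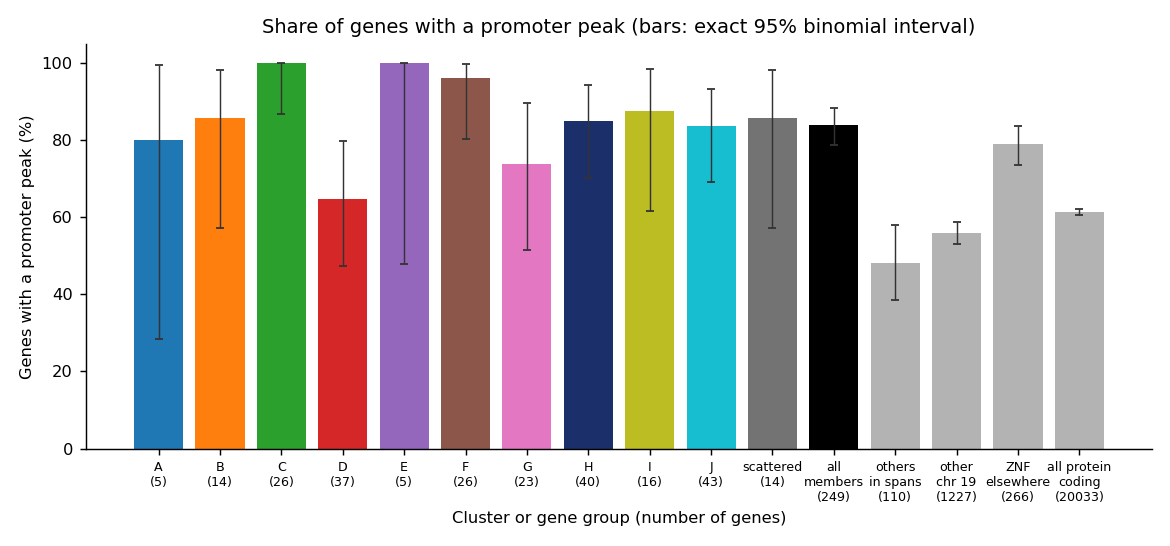
Share of genes with a promoter peak (y axis, %) in clusters A to J, in the scattered members and in comparison groups, with the number of genes in parentheses and exact 95% binomial intervals as bars. Cluster D is lowest among the clusters at 64.9% (77.4% without its genes in copied sequence), while the other protein-coding genes inside the cluster spans (others in spans) are at 48.2%.

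Height and frequency did not go together across clusters. Cluster C had a median fold of 26.5 and 12 of its 26 genes were over 30. Cluster D, in spite of its closed genes, had a median of 22.2 among its 24 genes with a peak, led by ZNF493 with 31.4. Cluster J had 21.6, with 7 of 36 over 30, led by ZNF584. Clusters H and I were lower, at 14.2 each, and 11 of the 34 promoter peaks of cluster H were under 10. The medians of the others were 27.6 in A (4 genes, led by ZNF57 with 34.0), 16.5 in B, 16 in E (led by ZNF181 with 23.7), 15.5 in F (led by ZNF527 with 35.0), 14.9 in G (led by ZNF225 with 33.0) and 12.9 in the scattered genes. ZNF808 led cluster H with 25.8 and ZNF444 led cluster I.

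The genes without a promoter peak in cluster D lay in 2 settings. From ZNF208 to ZNF730 (chr19:21932958-23147221, 1.21 Mb), 9 of 10 members had none, namely ZNF208, ZNF257, ZNF676, ZNF729, ZNF98, ZNF99, ZNF723, ZNF728 and ZNF730. The tenth, ZNF492, had the lowest fold the members reached (5.15, 2.64 to 9.32, at a pileup of 9). Only 2 summits lay in this whole stretch, and the longest interval between neighbouring summits of the cluster, 782 kb, ended in it. ZNF729 was 347.7 kb and ZNF676 was 344.9 kb from the nearest summit.

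The other 4, ZNF66, ZNF85, ZNF430 and ZNF100, lay in sequence that has a second copy on an alternative sequence of the reference. Reads that map equally well to 2 places have a low mapping quality and were removed by the authors. Chromosome 19 held 11 such segments of 2.3 Mb in all, and no summit lay in any of them. The 6 members in them, which include ZNF676 and ZNF729, all lacked a peak, and so did 51 of the 52 other protein-coding genes with their canonical start in them. Whether these promoters are open cannot be told from this list. Outside such sequence 209 of 243 members had a promoter peak (86.0%). This share is not comparable with the 55.9% of the other genes, which includes their genes in copied sequence. Outside it, 83.7% of members and 23.9% of the other genes had a peak at a CpG observed/expected of 0.6 or less. Above 0.6 the shares outside it were 86.6% and 79.8%. The remaining 23 members of cluster D, outside the stretch and outside copied sequence, had a peak in 23 of 23 cases (85.2 to 100%), with folds from 8.24 to 31.4 and a median of 22.7. The 8 genes of the stretch from ZNF208 to ZNF730 without such a copy included 7 without a peak.

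The other 27 members without a promoter peak were spread along the chromosome. In cluster G they were ZNF404, ZNF234, ZNF233, ZNF285, ZNF229 and ZNF180, and in cluster H they were ZNF480, ZNF880, ZNF534, ZNF578, ZNF415 and ZNF677. Cluster J held ZNF154, ZNF671, ZNF552, ZNF814, ZNF418, ZNF135 and ZNF132. Cluster B held ZNF177 and ZNF560, and cluster I held ZNF582 and ZNF835. ZNF556 in cluster A, ZNF793 in cluster F and the scattered genes ZNF541 and ZNF114 completed the list.

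For most of the 40 genes no summit of the list was nearby. The median distance from a start to the nearest summit was 32.4 kb (interquartile range, 14.6 to 77.2 kb), and 28 were over 20 kb away. These values include the 6 genes in copied sequence, at 24.3 to 347.7 kb, where openness cannot be told and which lengthen the distances. Within 2.5 kb of a summit were 5 genes. ZNF552 and ZNF180 missed the promoter window narrowly, with summits 104 and 117 bp downstream of a start, and ZNF480 had a summit 403 bp downstream. A low CpG content was not a general feature of these genes, since 27 of the 40 had a value above 0.6. Their median was 0.640, against 0.781 in the 209 genes with a peak, and their median GC content was 57.0% against 60.3%.

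Several genes of this family are known for silencing by DNA methylation in tumours. Of a list of 22 members with known roles, 16 had a promoter peak (72.7%, 49.8 to 89.3%) and 6 had none. The list was fixed with earlier results of these data known, so its share cannot be compared with the 83.9% of all members. The 6 were ZNF85, in copied sequence, and ZNF132, ZNF154, ZNF582, ZNF671 and ZNF677, all of which have been described as methylated in carcinomas. Methylation was not measured here, and its part in the absence of a peak was not tested. ZNF382, ZNF471 and ZNF577, for which the same has been described, had peaks, with folds of 9.79 (6.01 to 15.2), 18.0 (12.6 to 25) and 8.24 (4.84 to 13.3).

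Of the listed genes, ZNF91, ZNF93 and ZNF274 have known parts in silencing transposable elements or chromatin, and each had a promoter peak, as most members did. ZNF91, which represses SVA elements, had a fold of 27.3, and ZNF93, which represses LINE-1 elements, had 21.6 (15.7 to 29.2). ZNF274, which recruits SETDB1 to the 3' ends of zinc finger genes, had 10.3 (6.41 to 15.8), but no peak at its canonical promoter. The intervals of ZNF91 and ZNF274 did not overlap.

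Among members with other roles, ZNF146, a protein made almost wholly of fingers, had 29.9 (22.8 to 38.6), in a peak that it shares with ZNF565. ZNF473, a factor in the processing of histone transcripts, had 26.8 (20.1 to 35.1), in a peak that also lies at the promoter of VRK3. ZNF224, a repressor of the aldolase A gene, had 15.5 (10.5 to 22.0). ZNF43 had 16, ZNF675, an inhibitor of TRAF6 signalling, had 11.9, ZNF507 had 10.3 and ZNF649 had 9.28. ZNF536, a regulator of neuronal differentiation, was among the lowest with 6.18 (3.34 to 10.7). Its summit lay at -144653 bp from the canonical start and at -222 bp from another annotated start. ZNF675 likewise had no peak at its canonical promoter.

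A sequence shared by a subset of promoters separated the clusters more sharply than the peaks did. Words of 8 bases were counted, both strands pooled, in the 300-base promoter windows. The word with the largest excess in members over the other genes of the chromosome was TCCAATCA (TGATTGGA on the other strand), present in 61 of 249 members (24.5%) and in 15 of 1227 other genes (1.22%). It was found in 8.65% of ZNF genes elsewhere and in 1.78% of all protein-coding promoters. It contains the letters CCAAT, the core of the site of the factor NF-Y, which alone occurred in 53.0% of members, 37.1% of the other genes and 36.1% of all promoters. In a RefSeq table of promoters (same window lengths) that matched 218 members, 53 held the word (24.3%).

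The word was found in 3 clusters alone. It stood in 36 of 37 promoters of cluster D (97.3%, 85.8 to 99.9%), in 21 of 26 of cluster C (80.8%, 60.7 to 93.5%) and in 4 of 5 of cluster A. None of the 167 promoters of the other clusters and none of the 14 scattered genes held it. In 60 of the 61 genes it was on the gene's strand, with the first copy at a median of -75 bases from the TSS (interquartile range, -88 to -53.8). Among the 24 genes with 2 or more copies, 20 were in cluster D and 4 in cluster A, and the copies were most often 29 bases apart (17 genes).

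**Figure D4:**
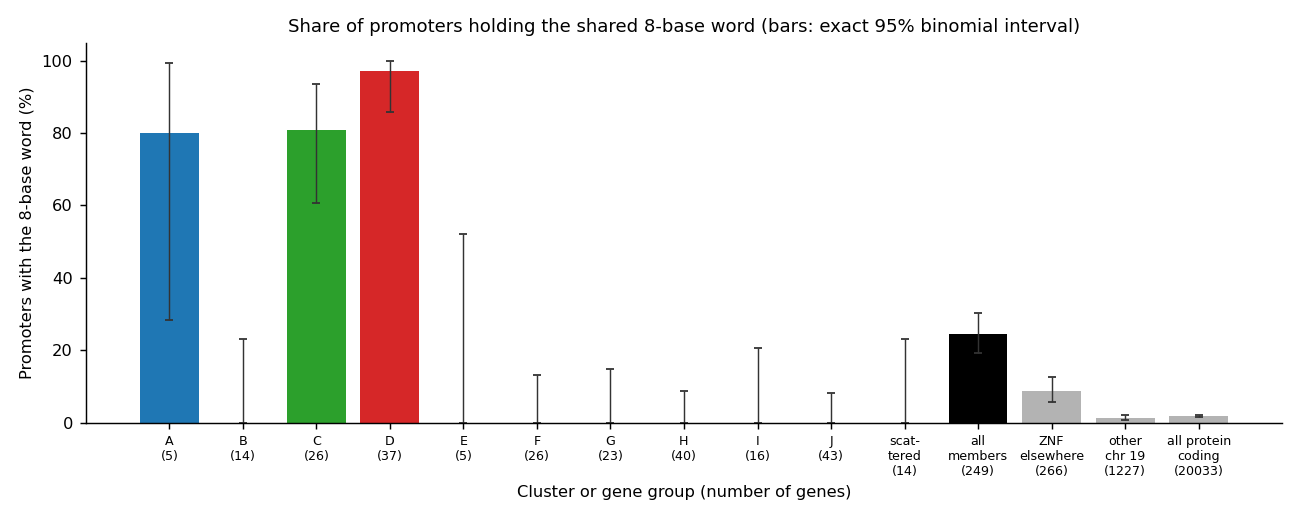
Share of promoters that hold the shared word of 8 bases (y axis, %) in clusters A to J, in the scattered members and in comparison groups, with the number of genes in parentheses and exact 95% binomial intervals as bars. Clusters C and D stand at 80.8 and 97.3% and cluster A holds it in 4 of 5 promoters, all other clusters at 0, and all protein-coding promoters at 1.78%.

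To show this sequence, windows of 64 bases from cluster D are given, with the word in capitals. Each starts 12 bases before the first copy and runs 5′ to 3′ on the gene's strand. The first set holds the 5 members of highest promoter fold with such a window, namely ZNF493 (fold 31.4, plus strand, chr19:21397036-21397099), ZNF714 (28.9, plus, chr19:21082103-21082166), ZNF708 (27.8, minus, chr19:21329391-21329454), ZNF254 (27.8, plus, chr19:24087122-24087185) and ZNF91 (27.3, minus, chr19:23395479-23395542).
ZNF493: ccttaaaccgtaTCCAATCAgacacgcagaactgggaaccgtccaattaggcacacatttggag
ZNF714: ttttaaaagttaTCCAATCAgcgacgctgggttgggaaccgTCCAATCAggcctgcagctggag
ZNF708: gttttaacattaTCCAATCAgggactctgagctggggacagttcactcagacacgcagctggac
ZNF254: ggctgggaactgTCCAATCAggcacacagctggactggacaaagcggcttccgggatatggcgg
ZNF91: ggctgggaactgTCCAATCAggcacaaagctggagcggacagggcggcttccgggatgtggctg
The second set comes from 3 members without a promoter peak, namely ZNF208 (minus, chr19:22010974-22011037), ZNF257 (plus, chr19:22052419-22052482) and ZNF98 (minus, chr19:22422348-22422411).
ZNF208: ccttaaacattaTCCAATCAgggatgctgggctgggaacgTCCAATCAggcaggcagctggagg
ZNF257: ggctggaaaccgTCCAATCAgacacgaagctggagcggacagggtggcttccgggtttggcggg
ZNF98: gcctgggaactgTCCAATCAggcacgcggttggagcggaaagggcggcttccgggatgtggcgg
Each window starts 12 bases before the first copy, so the word stands at the same place in all of them by design. Measured from the TSS, the first copy lay from -88 to -32 bases in the first set and from -82 to -53 in the second. The position of the word was not compared between all promoters with and without a peak.

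The share of members with a promoter peak was set beside the presence of the word. Of the 61 members with it, 48 had a promoter peak (78.7%, 66.3 to 88.1%), and of the 188 without it, 161 (85.6%, 79.8 to 90.3%). Outside copied sequence the shares were 85.7% (48 of 56, 73.8 to 93.6%) and 86.1% (161 of 187, 80.3 to 90.7%). Among the genes with the word, 24 of 36 had a peak in cluster D (66.7%, 49.0 to 81.4%) and 24 of 25 in clusters A and C (96.0%, 79.7 to 99.9%). In the stretch from ZNF208 to ZNF730, 9 of 10 promoters held it. Within the members with a peak, the median fold was 22.9 with the word and 16 without it, a difference that also separates clusters A, C and D from the rest. Where both were present on the gene's strand (47 genes), the summit lay at a median of 21 bases downstream of the first copy (interquartile range, -20.5 to 78.5), and 38 summits were within 100 bases of it.

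Other motifs were compared in the same windows on both strands. The ETS motif CCGGAAG occurred in 44.6% of members (38.3 to 51%), in 15.1% of the other genes of the chromosome and in 14.1% of all promoters. It was in 31.6% of ZNF genes elsewhere. Members without a peak held it in 52.5% of cases (36.1 to 68.5%) and members with a peak in 43.1% (36.3 to 50.1%), and the intervals overlapped. The word CCGGAAGC, which contains it, was in 23.7% of members, 5.62% of the other genes and 5.15% of all promoters, and AGGCCCCG in 24.9, 7.25 and 7.13%. The TATA box TATAAA was rare in members, at 2.81% against 7.74% of the other genes and 9.71% of all. The SP/KLF motif GGGCGG (67.9% of members and 61.3% of all), the YY1 motif ATGGCGG (9.24 and 7.82%), the NRF1 motif GCGCATGC (4.82 and 4.27%), the AP-1 motif TGANTCA (5.22 and 5.44%) and the CTCF motif AGNGGGCG (25.7 and 21.9%) differed less. A match describes the sequence and is not a bound site.

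Some peaks could not be assigned to a single gene. The 209 members with a promoter peak had 197 distinct highest peaks. The peak of 127 members lay at no other gene's promoter (60.8%, against 58.9% in the other genes), that of 36 also lay at a promoter of a long noncoding RNA, that of 26 at another protein-coding gene and that of 24 at another member. These 24 formed 12 pairs, 6 of them on opposite strands. ZNF540 and ZNF571 (starts 84 bp apart, fold 13.4) and ZNF568 and ZNF829 (41 bp apart, fold 15.5) were such pairs.

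The pair ZNF490 and ZNF791 had the highest fold among these pairs (33.5, 25.9 to 42.6), with starts 107 bp apart. The 188 bases at their starts (chr19:12610773-12610960, plus strand) are shown as an example of a single open site at the starts of 2 genes, with the word TCCAATCA in capitals.
ZNF490/ZNF791: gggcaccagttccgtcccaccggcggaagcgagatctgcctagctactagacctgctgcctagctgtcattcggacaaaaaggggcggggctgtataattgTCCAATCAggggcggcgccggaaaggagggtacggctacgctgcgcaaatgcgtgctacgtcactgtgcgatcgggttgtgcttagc

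Outside promoters the gene bodies were nearly without peaks. In 6.91 Mb of member gene body outside the promoters of all genes, 56 summits were found, or 0.810 per 100 kb (0.612 to 1.05). In the other protein-coding genes of the chromosome 819 summits lay in 21.9 Mb, or 3.74 per 100 kb (3.49 to 4.01), which is 4.62 times the density in members. The other genes inside the cluster spans were between these, at 1.55 (1.05 to 2.2). No gene-body summit was found in 201 of the 249 members (80.7%) and in 806 of the 1227 other genes of the chromosome (65.7%). Among the 110 other genes inside the cluster spans 85 had none (77.3%), close to the share of the members.

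The density varied among the clusters. It was lowest in cluster F (0.291 per 100 kb, 3 summits) and cluster D (0.304, 5 summits), apart from cluster A, where 0 summits were found and the interval reached 4.91. The gene-body length of cluster D includes copied sequence, in which no summit lay and openness cannot be told. Cluster B was highest among those with more than 1 summit (2.13, 0.781 to 4.63). The upper bounds of clusters D and F, 0.709 and 0.850, lay below the lower bound of cluster B for D only.

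**Figure D5:**
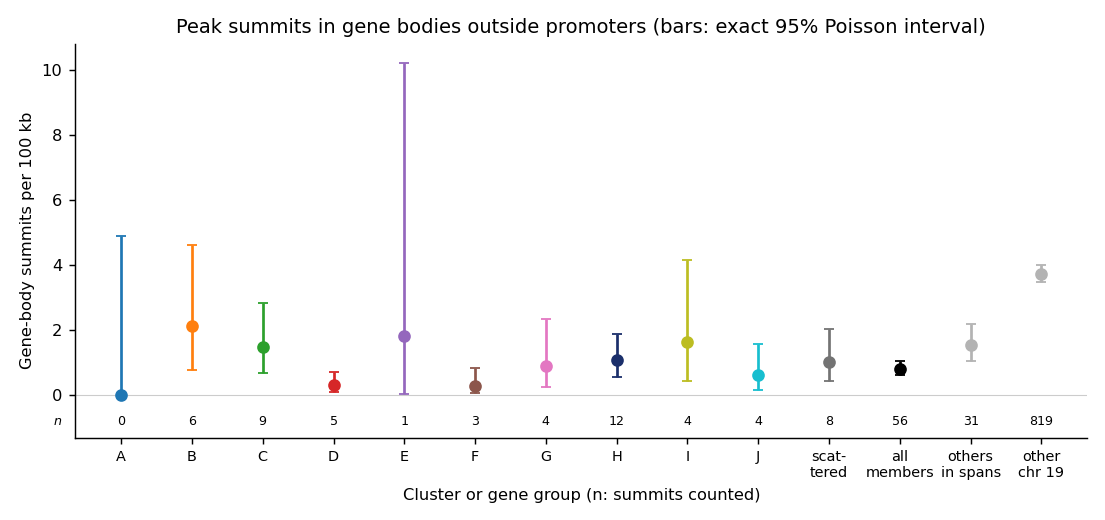
Peak summits per 100 kb of gene body outside promoters (y axis) in clusters A to J, in the scattered members and in comparison groups, with exact 95% Poisson intervals and the number of summits below each point. All members together are at 0.810 and the other protein-coding genes of the chromosome at 3.74.

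The long 3' exon that usually codes for the fingers was examined by itself. The longest coding exon was the last coding exon in 243 of the 249 members and held a median of 87.5% of the coding sequence. Outside promoters these exons covered 359.9 kb and held 3 summits, or 0.833 per 100 kb (0.172 to 2.44). The longest coding exons of the other genes held 12 summits, or 2.45 per 100 kb (1.27 to 4.28), and the intervals overlapped. Of the 56 summits, 11 were in an exon (19.6%), close to the 18.1% of gene-body bases that are exonic.

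The strongest gene-body peak was in an intron of ZNF507 (chr19:32373077-32374526), with a fold of 54.1 (44.3 to 65.4), far above the 10.3 at the promoter of the same gene. It lay 8027 bp from the nearest start of ZNF507. The next were in an exon of ZNF792 (41.2, 126 bp from a start), in introns of ZNF414 (31.4, 348 bp from a start), of ZNF44 (27.8) and of ZNF254 (27.3, 21280 bp from a start). ZNF792 and ZNF414 had lower folds at their promoters, at 6.70 and 8.24, so for these genes the higher peak lay just beyond the promoter window. ZNF507 and ZNF83 had 3 gene-body summits each, and 9 members had 2, among them ZNF44, ZNF627 and ZNF846.

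The cluster spans as a whole held fewer peaks than the rest of the chromosome. They made up 24.7% of its sequenced bases and held 15.3% of its 2412 peaks, at 25.6 summits per Mb (23 to 28.3) against 46.4 (44.4 to 48.5). Outside promoters the densities were 8.67 (7.22 to 10.3) and 28.6 per Mb (27.0 to 30.2), a ratio of 3.29. Promoters took 66.1% (61.0 to 70.9%) of the summits in the spans and 38.5% (36.4 to 40.6%) in the rest. Cluster D had the lowest density, at 8.97 per Mb (6.41 to 12.2), and cluster C the highest, at 45.8 (34.3 to 59.9), close to the rest of the chromosome. The span of cluster D includes copied sequence, in which no summit lay and openness cannot be told.

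Protein features were read from the canonical coding sequence. A KRAB box was found in 211 members, and 174 of these had a promoter peak (82.5%, 76.6 to 87.3%), against 35 of the 38 without one (92.1%, 78.6 to 98.3%). The intervals overlapped. The median number of fingers was 12 over all members, 13 in those with a promoter peak and 12 in those without. The proteins with the most fingers, ZNF729 with 39 and ZNF208 with 36, both lacked a promoter peak and lie in the stretch of cluster D described above, while ZNF91 with 32 had one.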

How the data were processed

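The data were the ATAC-seq peaks of 1 library of 786-O cells with an empty vector. According to the study's methods and the submitters' processing notes, the authors used fastp for trimming and Bowtie2 2.3.4.3 for alignment to hg38, removed reads that were mitochondrial or of low mapping quality and duplicates, and called peaks with MACS2 2.2.6 on this library alone, with a single genome-wide background. Whether reads were moved to the Tn5 cut site is not given in the sources used here. The ratio deposited by the authors is the fold enrichment of the summit over background, the deposited −log10 values are those of the peak caller for p and q, and the score in the deposited list equals −log10 q multiplied by 10, with 52 as the lowest in the list. Peak names carry a wild-type tag, and the label was used. The total read number is unknown. Each fold corresponded to a whole-number pileup (to within 1.8e-05 of a step), from which its interval was computed. The smallest pileup was 9, so weaker sites are not in the list. The lowest score is stricter than the q limit for peak calling in the study's methods. The list therefore seems to have been filtered after calling. A weaker called peak at a gene without a promoter peak would not be seen here.

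Genes and starts came from GENCODE release 44 and sequences from hg38. Summits outside the promoters of all genes and inside a gene were called gene body. The finger pattern was C-x(2,4)-C-x(12)-H-x(3,5)-H, and a KRAB box needed at least 10 of 16 fixed letters. No protein table was used; coding sequence was translated. Copied sequence was found with minimap2 2.31 (at least 10 kb, at most 5% divergence from an alternative sequence of the chromosome). Promoter copies elsewhere on the chromosome (at least 500 bp, 95% identity) were found for 1 member. Python 3.11.15, numpy 2.4.6, pandas 2.3.3, scipy 1.17.1, pysam 0.24.0 and matplotlib 3.10.9 were used, and the functions were tested on simulated data. Members and lists were chosen with earlier results of these data known. Named were every member without a promoter peak, the highest fold of each cluster, the 10 highest folds, the 5 genes with the most gene-body summits, the 5 highest gene-body peaks and 22 genes of known role. The sequences shown, the gene pairs and the stretch in cluster D were chosen after their values were seen, as were the shares outside copied sequence by cluster and by word. No tests were made, since there was 1 library. Another gene checked as a marker of the line is not reported here.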

Additional observations from a re-analysis of the deposited data

How the results depend on the processing

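No paired analysis was possible because the data were 1 library without replicates. The share of members with a promoter peak moved outside its interval to 77.1% with the canonical transcript only (other genes of the chromosome, 46.0%) and to 69.9% with a score above 200 (43.6%). It was 88.5% (208 of 235) without the stretch from ZNF208 to ZNF730 and without copied sequence, a setting chosen after seeing the data. The other genes were not recomputed in this setting. Under all 5 windows, start sets and score minimums tried for both measures, members had the higher share and the lower median fold. The gene-body density of members was 0.478 per 100 kb with a score above 100 (other genes, 2.27), 0.275 with a score above 200 (1.33) and 0.553 with promoters of 2.5 kb to both sides taken out (3.21). The density of the cluster spans was 21.2 per Mb with a score above 100 (rest of the chromosome, 32.0) and 16.4 with a score above 200 (21.6), so the ratio to the rest narrowed as weak peaks were removed. Median CpG observed/expected of members was 0.606 in place of 0.767 in windows from 1 kb before to 100 bases after the TSS (other genes, 0.582 and 0.735). The difference between the highest and the lowest cluster, 35.1 points at first, ranged from 26.1 to 44.8 points. Cluster D was lowest except with a score above 200, where H was lowest at 47.5%, and without copied sequence, a setting chosen after seeing the data, where G was lowest at 73.9% and the intervals of clusters D and C overlapped. For 39 named genes with a peak, 106 of 111 folds recomputed with another window or start set stayed inside their counting interval. A fold changes in such a setting only where another deposited peak becomes the highest, so this count does not measure stability. No peak was left for 6 of these genes with the canonical transcript only, for 3 with a score above 100 and for 9 with a score above 200. Depth limits single genes most, since a pileup of 9 has a fold interval of 2.64 to 9.32.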
